A study of Sus scrofa and Rattus norvegicus with 8 samples.

Results

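The genes described are 9 markers of macrophages, CD68, CD163, CSF1R, MRC1, C1QA, C1QB, C1QC, TYROBP and AIF1, read in subcutaneous fat of the pig. They were chosen by symbol, each matched 1 Ensembl ID, and they are 9 of the 25880 IDs of the pig table, of which 14844 are named nuclear genes. The series profiled adipose tissue of pig and rat by RNA-seq with depletion of ribosomal RNA, as part of a comparison of the same tissue between mammals. The 6 pigs were adult female Bama pigs aged 2 years, each giving 1 library of the upper backfat layer, with no treatment and no second pig group. The 2 rat libraries are not used, so the comparisons are between genes within a library and between the 6 animals, and none carries a test.

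Macrophages of adipose tissue take up dying cells, debris, iron and lipid, and their long-lived resident forms carry scavenger and lectin receptors such as CD163 and the mannose receptor MRC1. They depend on signals through the receptor CSF1R and are a main local source of C1q, the recognition molecule of the classical complement pathway, which is built from 3 chains encoded by C1QA, C1QB and C1QC. CD163 and MRC1 are called resident type markers here, and the other 7 genes general markers.

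Values are TPM, a transcript abundance corrected for length that sums to a fixed total in each library. Named nuclear genes held 24.1 to 26.3% of the TPM in replicates 1, 2, 3 and 6, but 3.34% in replicate 4 and 4.73% in replicate 5. Levels were therefore also given as rescaled TPM, in which the named nuclear genes of each library sum to 1000000. One factor per library does this, from 3.80 to 4.15 in the other 4 libraries, 29.9 in replicate 4 and 21.1 in replicate 5. After rescaling, the median of 8866 named nuclear genes with a mean of at least 10 rescaled TPM was still 0.43 lower on the log2 scale in replicates 4 and 5 than in the other 4, so the members are read against that shift. These 8866 genes are the background below. Some genes of the lists below lie under that minimum, and no share was taken over genes of such low level.

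All 9 markers were detected at over 0.1 TPM in all 6 libraries. Their summed level was 907 ± 269 rescaled TPM (SD, n = 6). Replicates 1 to 3 had 976, 922 and 1156 rescaled TPM, replicates 4 to 6 had 679.9, 509.9 and 1198. The sum was thus lowest in replicates 4 and 5, and without them it was 1063 ± 135 (SD, n = 4). As deposited it was 189 ± 133 TPM (SD, n = 6), with 22.7 and 24.1 TPM in replicates 4 and 5 and 222 to 316 TPM elsewhere. Replicates 4 and 5 also differed as libraries. Mitochondrially encoded genes held 0.209% and 0.298% of their TPM, against 10.8 to 21.2% elsewhere. Named nuclear genes over 0.1 TPM numbered 10126 and 10556 there, against 12736 to 12884. In whole tissue, fewer macrophages, less of these RNAs per macrophage and a technical difference of these libraries cannot be told apart.

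As deposited, all 9 markers were lower in both replicates 4 and 5 than in every other library, as were 99.1% of the background genes. As rescaled, 5 of the 9 were, namely CD68, CSF1R, C1QB, TYROBP and AIF1, beside 48.6% of the background genes, so the count alone is no result about the markers. CD163, MRC1, C1QA and C1QC overlapped between the 2 sets of libraries. Quantile normalization left 4 of 9 below, but the background share under that scaling was not computed, so this count cannot be read against it. The shifts between these libraries were spread over much of the background range. For CD68 the shift was -2.98 on the log2 scale, which only 0.936% of background genes exceeded downwards. It was -1.66 for CSF1R, -1.64 for C1QB, -1.27 for TYROBP and -1.03 for AIF1, at background percentiles 9.24, 9.69, 16.6 and 23.7. CD163, at -0.77, lay at percentile 33.9. MRC1, at -0.44, and C1QC, at -0.32, lay near the background median of -0.43, at percentiles 49.2 and 55.7. C1QA, at 0.13, lay above it, at percentile 78.2.

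**Figure D1:**
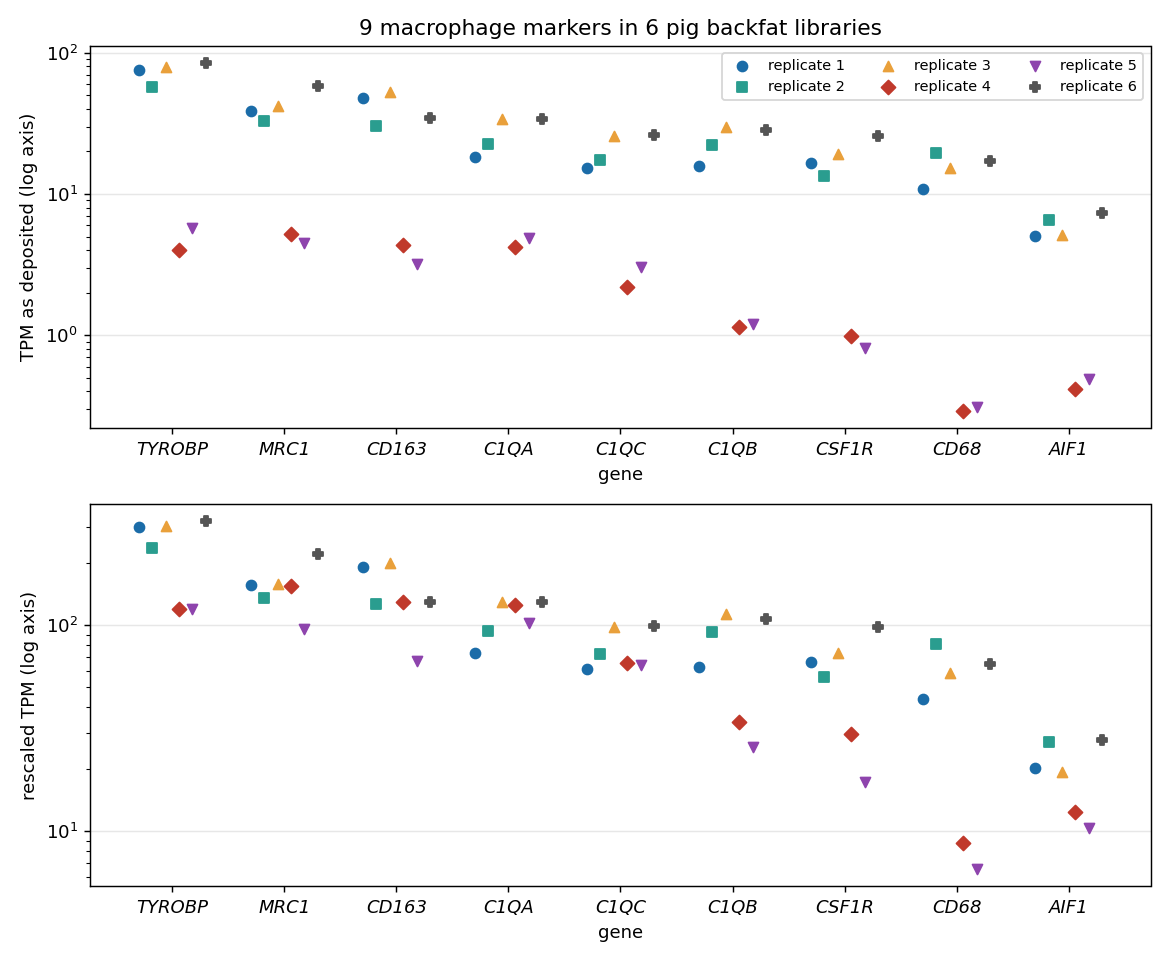
Level of each marker (x axis, ordered by mean rescaled TPM) in each of 6 pig libraries, as TPM as deposited (upper) and as rescaled TPM (lower), both on log axes, 1 symbol per library. Replicates 4 and 5 lie below the other 4 for all 9 genes as deposited, and for 5 of 9 as rescaled.

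On the deposited scale TYROBP ranged from 57.4 to 84.1 TPM in the other 4 libraries, with 3.98 TPM in replicate 4 and 5.70 in replicate 5. The resident type markers came next, CD163 at 30.4 to 52.7 TPM against 4.32 and 3.18, and MRC1 at 32.7 to 58.5 TPM against 5.20 and 4.53. Of the C1q chains, C1QA had 18.3 to 34.1 TPM against 4.19 and 4.86, C1QC 15.2 to 26.1 TPM against 2.18 and 3.04, and C1QB 15.7 to 29.7 TPM against 1.14 and 1.21. The gap was thus narrowest for C1QA and wider for C1QB. CSF1R had 13.4 to 25.8 TPM against 0.991 and 0.819, and AIF1 5.07 to 7.31 TPM against 0.415 and 0.490. CD68 had 10.9 to 19.5 TPM against 0.292 and 0.311, the widest gap of the 9.

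TYROBP had the highest mean, followed by MRC1, CD163, C1QA, C1QC, C1QB, CSF1R, CD68 and AIF1, all on the rescaled scale. Between neighbours in this order, only C1QA over C1QC held in all 6 libraries. TYROBP ranked first in 5 of 6 libraries and at place 4 in replicate 4, and AIF1 or CD68 ranked last in each. Replicate 6 held the highest value of 6 markers and replicate 5 the lowest of 6.

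The scavenger and lectin receptors were described first. CD163 (ENSSSCG00000033146), the receptor for complexes of hemoglobin and haptoglobin, is a plus-strand gene of chromosome 5 (63300200 to 63334497, build Sscrofa11.1) whose longest RefSeq transcript has 18 exons. Its level was 192, 126 and 201 rescaled TPM in replicates 1 to 3 and 129, 67.1 and 130.3 in replicates 4 to 6, a mean of 141 ± 49.5 (SD, n = 6) and of 163 ± 39.9 (SD, n = 4) without replicates 4 and 5. Replicate 5 was lowest, while replicate 4 fell within the range of the others.

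MRC1 (ENSSSCG00000011038), the mannose receptor, an endocytic lectin, is a plus-strand gene of chromosome 10 (44107926 to 44226734) with 30 exons. It had 156, 136 and 159 rescaled TPM in replicates 1 to 3 and 156, 95.7 and 222 in replicates 4 to 6, a mean of 154 ± 40.9 (SD, n = 6). Its CV, the SD divided by the mean, was 0.266, just under the background median of 0.282. Neither receptor was steadily the higher of the pair. CD163 exceeded MRC1 in 2 of 6 libraries, with log2 ratios of 0.30 in replicate 1 and 0.34 in replicate 3, and lay below it in the other 4, down to -0.77 in replicate 6.

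CD68 (ENSSSCG00000017956), a heavily glycosylated protein of late endosomes and lysosomes, is a plus-strand gene of chromosome 12 (52874754 to 52877256) with 6 exons. It had 43.7, 80.7 and 58.7 rescaled TPM in replicates 1 to 3 and 65.0 in replicate 6, but 8.74 in replicate 4 and 6.56 in replicate 5. Its mean was 43.9 ± 30.5 (SD, n = 6), and 62.0 ± 15.3 (SD, n = 4) without these 2 libraries. Over 6 libraries no other marker varied as much, and its CV of 0.695 exceeded that of 97.2% of background genes. Without replicates 4 and 5 its CV was 0.247, above 76.2%, and C1QA varied more. The gap in replicates 4 and 5 stood under all 5 scalings. Deviations in these 2 libraries also ran with GC content and transcript length, where 93.1% of background genes had both properties. With GC content, from lowest to highest decile, the median deviation from each gene's own median went from -0.09 to -0.46 in replicate 4. In replicate 5 it went from -0.19 to -0.48. From the shortest to the longest decile of transcript length it went from -0.01 to -0.54 in replicate 4. In replicate 5 the span with length was 0.15 to -0.78. Other libraries trended too, such as replicate 1 with GC content, from 0.02 to 0.18, and replicate 2 with length, from -0.06 to 0.24. Relative to the median of its own GC decile, CD68 stood at -2.12 in replicate 4 and -2.48 in replicate 5 on the log2 scale, and relative to that of its length decile at -2.51 and -3.08.

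The window of 250 bases before the annotated start of CD68 is shown because CD68 had the widest gap of the 9. It is the RefSeq sequence of Sscrofa11.1 at chr12:52874504-52874753, plus strand, with matches to AGGAAG (the core bound by PU.1, a lineage factor of myeloid cells) and TGANTCA (the AP-1 element) in capitals, both searched on both strands.

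CD68: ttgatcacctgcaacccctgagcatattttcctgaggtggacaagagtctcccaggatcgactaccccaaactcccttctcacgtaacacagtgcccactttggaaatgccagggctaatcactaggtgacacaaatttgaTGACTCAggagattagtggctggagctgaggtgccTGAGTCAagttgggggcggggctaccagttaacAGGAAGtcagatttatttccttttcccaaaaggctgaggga

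AGGAAG occurred in this window in 4 of 9 markers (C1QC, CD68, CSF1R and MRC1) and in 24.8% of 20638 promoters of the same length. TGANTCA occurred at 2 positions before CD68, in no other marker and in 5.46% of promoters. Neither pattern overlapped the other. A match describes these letters and no binding was measured.

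CSF1R (ENSSSCG00000014441), the tyrosine kinase receptor for CSF1 and IL34, is a minus-strand gene of chromosome 2 (151102138 to 151130311) with 22 exons. It had 66.6, 55.8 and 72.9 rescaled TPM in replicates 1 to 3 and 29.7, 17.3 and 97.7 in replicates 4 to 6. The mean was 56.7 ± 29.4 (SD, n = 6), and 73.3 ± 17.8 (SD, n = 4) without replicates 4 and 5, whose values did not overlap the others. Both ligands were expressed. CSF1, the main survival factor of macrophages, had 62.3, 78.1, 108, 43.4, 18.9 and 145 rescaled TPM in replicates 1 to 6, and IL34, the second ligand, had 22.2, 21.6, 18.3, 10.4, 17.6 and 18.1. CSF1 exceeded IL34 in 6 of 6 libraries, by 1.84 ± 1.00 on the log2 scale (SD, n = 6), with a difference of 0.10 only in replicate 5. The log2 ratio of CSF1 to its receptor was 0.37 ± 0.28 (SD, n = 6), and 0.38 ± 0.32 (SD, n = 4) without replicates 4 and 5, so ligand and receptor RNA stood at like levels in each library although both ranged several-fold.

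The 3 C1q chains were then compared. Their genes lie in a row on chromosome 6, in the order C1QA, C1QC and C1QB on the plus strand, within 19818 bases. C1QA (ENSSSCG00000003524) spans 80586259 to 80589213 with 3 exons, C1QC (ENSSSCG00000038706) 80592591 to 80597464 with 3 exons, and C1QB (ENSSSCG00000033512) 80601680 to 80606076 with 4 exons. The gaps between them are 3377 and 4215 bases. The windows of 250 bases before each start are shown because the 3 genes are neighbors whose levels ran together in some libraries and not in others. They are at chr6:80586009-80586258, chr6:80592341-80592590 and chr6:80601430-80601679 in the same order, plus strand, from RefSeq, with AGGAAG or its reverse complement in capitals.

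C1QA: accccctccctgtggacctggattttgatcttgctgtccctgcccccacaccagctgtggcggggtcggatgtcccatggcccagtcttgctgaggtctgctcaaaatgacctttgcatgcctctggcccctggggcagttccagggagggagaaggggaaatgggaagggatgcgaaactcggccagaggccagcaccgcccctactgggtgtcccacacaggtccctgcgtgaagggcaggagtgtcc
C1QC: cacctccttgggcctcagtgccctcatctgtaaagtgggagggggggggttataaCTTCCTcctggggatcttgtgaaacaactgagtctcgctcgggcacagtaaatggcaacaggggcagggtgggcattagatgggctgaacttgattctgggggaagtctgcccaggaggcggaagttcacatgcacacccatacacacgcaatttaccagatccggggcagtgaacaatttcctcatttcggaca
C1QB: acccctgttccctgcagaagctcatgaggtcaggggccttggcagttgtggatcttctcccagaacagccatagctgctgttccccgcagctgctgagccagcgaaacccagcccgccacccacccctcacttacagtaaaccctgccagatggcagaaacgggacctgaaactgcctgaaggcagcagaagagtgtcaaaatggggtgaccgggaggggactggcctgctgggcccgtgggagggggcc

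Only the C1QC window held that core, 195 to 190 bases before the start. TGCTGA, part of the element bound by MAF factors, was found in the windows of C1QA and C1QB on either strand, in no other marker and in 12.7% of promoters. TATAAA was found before 0 of 9 markers, against 10.4% of promoters.

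C1QA had 73.4, 93.2 and 129.6 rescaled TPM in replicates 1 to 3 and 125, 103 and 129.6 in replicates 4 to 6, a mean of 109 ± 23.1 (SD, n = 6). C1QC had 61.0, 72.8 and 97.8 in replicates 1 to 3 and 65.3, 64.2 and 99.0 in replicates 4 to 6, a mean of 76.7 ± 17.3 (SD, n = 6). Over 6 libraries these 2 chains had the lowest CVs of the 9 markers, 0.212 and 0.225, but without replicates 4 and 5 C1QA had the highest, 0.262, and C1QC had 0.228. C1QB had 63.0, 92.5 and 114 rescaled TPM in replicates 1 to 3 and 34.0, 25.6 and 108 in replicates 4 to 6, a mean of 72.7 ± 37.7 (SD, n = 6). It was thus apart from the other two chains in replicates 4 and 5 alone.

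Ratios within a library, which no factor per library changes, gave the same picture. The log2 ratio of C1QA to C1QB was 0.22, 0.01 and 0.19 in replicates 1 to 3 and 0.27 in replicate 6, but 1.88 in replicate 4 and 2.00 in replicate 5, where C1QA was 3.68 and 4.00 times C1QB. In the other 4 libraries the chains stood near equality, at 0.17 ± 0.11 (SD, n = 4). C1QA exceeded C1QC in 6 of 6 libraries, by 0.35 ± 0.06 (SD, n = 4) without replicates 4 and 5 and by 0.94 and 0.68 in them. C1QA and C1QB share a decile of GC content, at 60.9% and 59.5% GC, and lie in neighboring deciles of transcript length, at 1527 and 1075 bases. Relative to the median of its length decile, C1QA stood at 0.22 in replicate 4 and -0.14 in replicate 5, and C1QB at -1.15 and -1.72. As rescaled, a shift of 1.77 between the pair is not rare: 14.2% of all pairs of background genes shifted at least as much between the same libraries. The partner proteases C1R and C1S had no ID in the name table. In contrast to C1QA and C1QC, SERPING1, the inhibitor of C1, had 882 to 1029.6 rescaled TPM in the other 4 libraries, 266 in replicate 4 and 169.6 in replicate 5.

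TYROBP (ENSSSCG00000002919), the membrane adaptor also called DAP12 that relays signals of TREM and related receptors, is a minus-strand gene of chromosome 6 (45309199 to 45312562) with 5 exons. It had 299.97, 238 and 304 rescaled TPM in replicates 1 to 3 and 119, 120.4 and 319 in replicates 4 to 6. The mean was 233 ± 92.2 (SD, n = 6). Without replicates 4 and 5 it was the least variable marker, with a CV of 0.123, which exceeded that of only 32.7% of background genes. Of 6 genes fixed as its partners, 4 had an ID, and each of the 4 was lower in replicates 4 and 5 than in the others, as were 48.6% of the background genes. FCER1G, a related adaptor of Fc receptors, had 119 to 220.02 rescaled TPM in the other 4 libraries, 34.0 in replicate 4 and 20.7 in replicate 5, and TYROBP exceeded it in 6 of 6. The receptor genes were low: TREM2, a lipid-sensing receptor, had 1.83 to 12.1 rescaled TPM and TREM1 0.874 to 5.15. As deposited, TREM1 was under 0.1 TPM in replicates 4 and 5, and TREM2 in replicate 5. SYK, the kinase recruited by these adaptors, had 4.45 to 14.4. The means of TREM1, TREM2 and SYK lay under the background minimum of 10 rescaled TPM, so the background share does not cover them.

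AIF1 (ENSSSCG00000032341), the calcium-binding and actin-bundling protein also called IBA1, is a plus-strand gene of chromosome 7 (23711752 to 23731191) with 5 exons. It had 20.3, 27.0 and 19.5 rescaled TPM in replicates 1 to 3 and 12.4, 10.4 and 27.7 in replicates 4 to 6, a mean of 19.5 ± 7.18 (SD, n = 6). AIF1 was the least abundant member on average. Its log2 ratio to TYROBP had an SD of 0.33 over 6 libraries, under the background median of 0.58 for pairs of genes, and of 0.38 without replicates 4 and 5, over the background median of 0.36.

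Resident type markers were set against general markers as the log2 ratio of geometric means within a library. Replicates 1 to 3 had ratios of 1.41, 0.74 and 1.05, and replicates 4 to 6 had 1.91, 1.39 and 0.82. It was above 0 in 6 of 6 libraries, with a mean of 1.22 ± 0.44 (SD, n = 6), a geometric mean of 2.33-fold, and 1.00 ± 0.30 (SD, n = 4) without replicates 4 and 5. The order of the 2 sets therefore exceeded the spread between animals, but it is an order of means and not of every gene. TYROBP exceeded CD163 and MRC1 each in 5 of 6 libraries, and C1QA exceeded both in replicate 5. The ratio was highest in replicate 4, where general markers such as CD68 were low and MRC1 was not. Leaving the 3 C1q chains out of the general set gave 1.52 ± 0.64 (SD, n = 6).

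**Figure D2:**
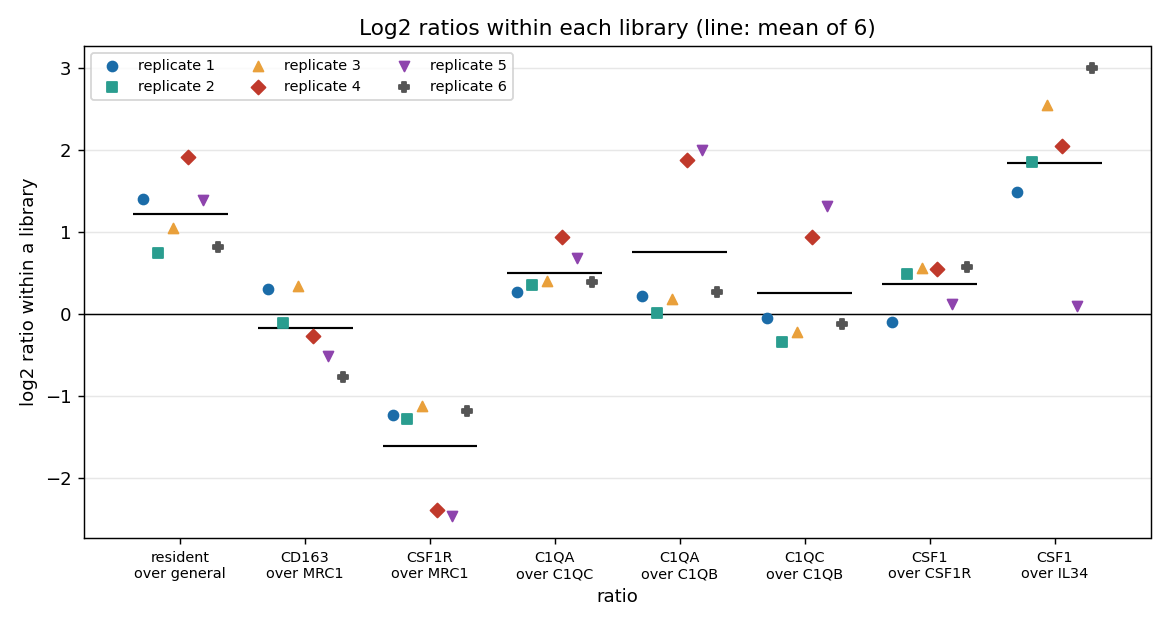
Log2 ratios of rescaled TPM within each library (y axis) for 8 pairs of genes or gene sets (x axis), 1 symbol per library, with the mean of 6 libraries as a line. The resident over general ratio lies above 0 in 6 of 6 libraries, and C1QA over C1QB is near 0 in replicates 1, 2, 3 and 6 and at 1.88 and 2.00 in replicates 4 and 5.

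Co-variation was measured as the SD over libraries of the log2 ratio of each of 36 pairs of markers: the smaller it is, the more closely a pair runs together. No correlation is given, since the libraries fall into 2 clusters of 4 and 2. The median SD was 0.62, against 0.58 for all pairs of background genes, so the markers as a set did not run together more closely than genes at large. Without replicates 4 and 5 the medians were 0.39 and 0.36. The pairs ranged from 0.25 for C1QA and C1QC to 1.64 for C1QA and CD68, and the 5 pairs over 1 all held CD68.

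Some pairs ran closely within the other 4 libraries. C1QA and C1QC had an SD of 0.06 there, C1QA and C1QB 0.11, and C1QB and C1QC 0.13. CSF1R and MRC1, on different chromosomes, had an SD of 0.07, and their log2 ratio was -1.23, -1.28, -1.13 and -1.18 in replicates 1, 2, 3 and 6, but -2.39 in replicate 4 and -2.46 in replicate 5. Most pairs were not close: 15 of all 36 lay under the background median in these 4 libraries. Of the 8 pairs of each gene, 7 exceeded that median for CD163, including that with MRC1 at 0.52, 6 for CD68 and AIF1, and 3 to 5 for the others. Over all 6 libraries that pair had an SD of 0.44, under the background median, so whether the 2 resident type markers ran closely depended on the libraries.

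**Figure D3:**
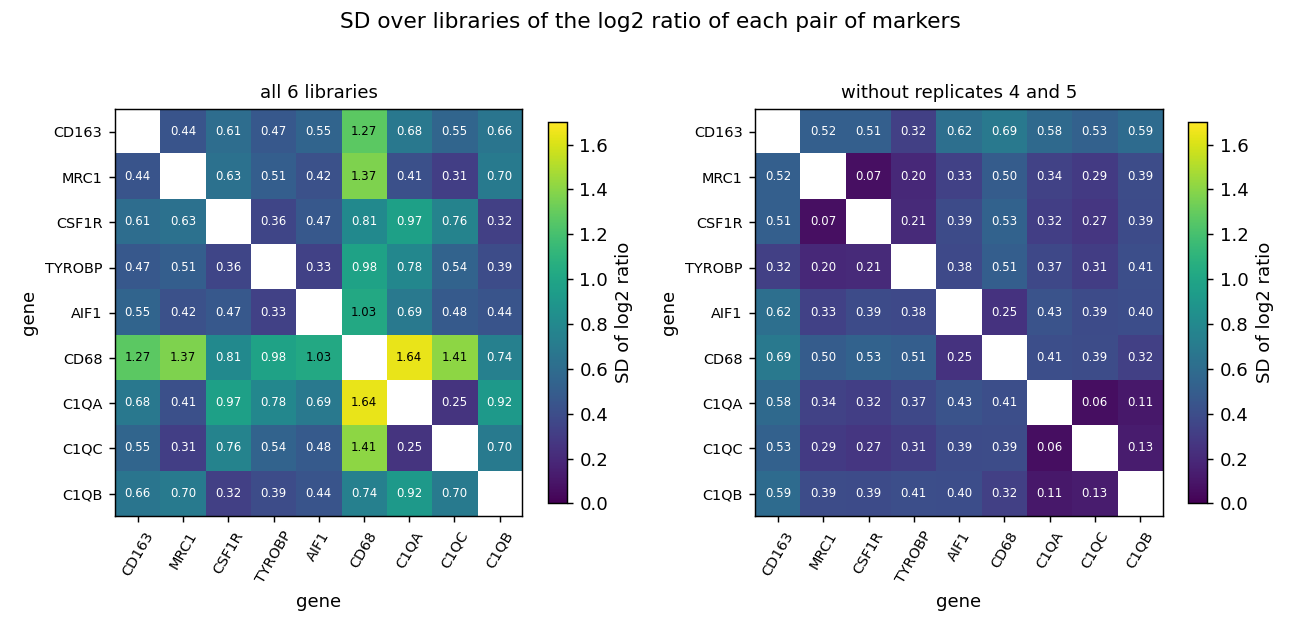
SD over libraries of the log2 ratio of each pair of the 9 markers (both axes list genes, color and numbers give the SD), for all 6 libraries (left) and without replicates 4 and 5 (right). CD68 holds the 5 pairs over 1 on the left, and the lowest values on the right are C1QA with C1QC (0.06) and CSF1R with MRC1 (0.07).

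Spread between animals was also read gene by gene. The median CV of the 9 markers was 0.367 over 6 libraries, against 0.282 for the background, and 0.240 against 0.161 without replicates 4 and 5. With no minimum level the background median was 0.368, and with a minimum of 1 rescaled TPM it was 0.327, so that the markers were more variable than the background under either minimum and level with it under none. In the other 4 libraries, 8 of the 9 markers (TYROBP was the exception) had a CV above that of at least 59.0% of background genes.

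The genes whose pattern over 6 libraries was most like the geometric mean of the 9 were PQBP1, TLN1, FAF2, FMR1 and LAMC1, with SDs of the log2 ratio of 0.07 to 0.08 against a median of 0.55 over 8857 genes. TLN1 encodes talin, an adaptor of integrins, and LAMC1 a laminin chain of basement membranes. Of the markers, TYROBP and AIF1 lay closest to the mean of the 9, with SDs of 0.22 and 0.23, and CD68 farthest at 1.01. Each marker is itself part of that mean.

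Other genes of macrophages gave context. Of 8 further receptors of resident macrophages, 8 had an ID and 4 were lower in replicates 4 and 5 than in the others, near the background share of 48.6%. The 3 most abundant were CD209, a C-type lectin, with 27.1 and 19.2 rescaled TPM in replicates 4 and 5 and 95.0 to 241 elsewhere, FOLR2, a folate receptor, with 63.0 to 111 over all 6, and LYVE1, a hyaluronan receptor, with 41.9 and 18.7 in replicates 4 and 5 and 53.6 to 132 elsewhere. Like CD163, FOLR2 did not separate the libraries, whereas CD209 did.

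Of 6 genes of the handling of heme and iron, the pathway CD163 feeds, 4 had an ID. HMOX1, which opens the heme ring, had 19.8 to 53.97 rescaled TPM in the other 4 libraries, 7.35 in replicate 4 and 11.3 in replicate 5, and BLVRB, a biliverdin reductase, had 35.5 to 51.7 in the other 4 and 17.8 and 22.7 in replicates 4 and 5. FTL, the ferritin light chain, went the other way, with 2284 to 2665 elsewhere, 2769.9 in replicate 4 and 3635 in replicate 5. SLC40A1, the iron exporter, had 216 to 471 with no separation. These genes are used by many cell types.

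Of 7 transcription factors of macrophages, 6 had an ID and 5 were lower in replicates 4 and 5, beside a background share of 48.6%. MAF had the highest level, with 119 to 150.3 rescaled TPM in the other 4 libraries, 80.9 in replicate 4 and 54.4 in replicate 5, and the SD of its log2 ratio to the mean of the 9 was 0.18, smaller than for all but 1.82% of genes. NR1H3, a sterol-sensing nuclear receptor, had 65.0 to 71.3 in the other 4 and 35.3 and 62.6 in replicates 4 and 5. SPI1, which encodes PU.1, had 40.0 to 80.8 elsewhere and 11.9 and 9.32 in replicates 4 and 5. The SD of the log2 ratio to the mean of the 9 was 0.78 for SPI1, larger than for 79.5% of genes. For NR1H3 it was 0.52, larger than for 45.8%. LIPE, of the adipocyte list, lay closer to that mean than MAF, at 0.16. Among 9 other myeloid genes with an ID, 6 were lower and 1, CTSS, a lysosomal protease, was higher in replicates 4 and 5, at 438.7 and 490.002 rescaled TPM against 172 to 437.6, so that replicate 4 barely cleared the range. The background shares were 48.6% lower and 12.3% higher. LAPTM5 had 90.8 to 187, and LYZ, lysozyme, 34.9 to 71.6.

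Markers of other cells were read as sums over the genes with an ID, in rescaled TPM. Endothelial genes, led by PECAM1, CDH5 and KDR, summed to 646 and 764 in replicates 4 and 5 against 1119.8 to 1392 elsewhere, with 6 of 6 genes lower. Stromal genes, led by DCN, COL1A1 and LUM, summed to 5208 and 5449 against 8202 to 15393, with 4 of 6 genes lower. Both counts stand beside 48.6% of the background genes. Adipocyte genes, led by FABP4, ADIPOQ and PLIN1, summed to 25694 and 34587 in replicates 4 and 5 and to 17916 to 32517 elsewhere, and so overlapped. That sum is mostly FABP4, a fatty acid carrier. Of 7 adipocyte genes, 4 were lower and 1 was higher in replicates 4 and 5, beside 48.6% and 12.3% of the background genes. Without FABP4, a choice made after its values were seen, the list summed to 5694 and 5661 there against 7063 to 8846. The lower sum of the 9 markers in replicates 4 and 5 thus came with lower sums of several other cell type lists. The neutrophil list moved the other way, with 99.6 and 292 in replicates 4 and 5 against 10.4 to 53.7, through S100A8 and S100A12, and CSF3R overlapped at 1.19 to 10.9. Monocytes and macrophages can share these genes. The part of other cell types in the levels of the markers was not tested.

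**Figure D4:**
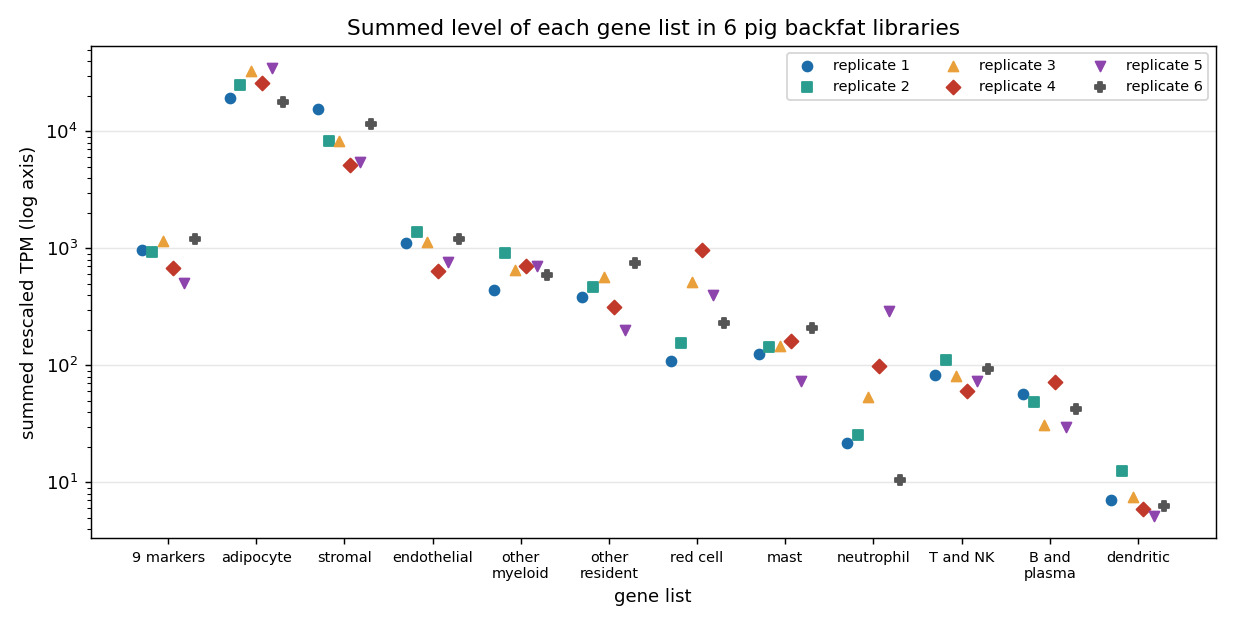
Summed rescaled TPM (y axis, log) of the 9 markers and of 11 marker lists of other cells (x axis), 1 symbol per library. The sum of the 9 markers lies at 679.9 and 509.9 in replicates 4 and 5, below the other 4 libraries, as do those of endothelial, stromal, other resident, T and NK and dendritic cell genes, and the neutrophil sum is highest in replicate 5 at 292.

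Lymphoid and other blood cell genes were far lower or uneven. T and NK genes summed to 60.6 and 73.4 in replicates 4 and 5 against 81.2 to 111 elsewhere, with 3 of 8 genes lower and 1 higher, led by CD247, NKG7 and CD2, and B and plasma cell genes to 29.97 to 72.7, led by JCHAIN and CD79A. Dendritic cell genes, led by ZBTB46, FLT3 and XCR1, summed to 5.95 and 5.16 in replicates 4 and 5 against 6.26 to 12.5 elsewhere, with 2 of 4 genes lower. Beside the counts for these lists, 48.6% of the background genes were lower and 12.3% higher. That background has a minimum mean of 10 rescaled TPM, and all 4 dendritic cell genes and most T and NK genes lie under it. The shares thus do not cover most genes of these lists. Only 4 of the 8 T and NK genes and 1 of the 4 dendritic cell genes were over 0.1 TPM in all 6 libraries. Mast cell genes summed to 73.5 to 210.3, led by MS4A2, KIT and FCER1A. Red cell genes summed to 109.7 to 971, nearly all HBB, a chain of hemoglobin, with ALAS2 and AHSP at most 8.28. CD79B and MPO were over 0.1 TPM in no library. The 9 markers summed to more than T and NK genes in each library, although lists of different genes do not measure cell numbers.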

How the data were processed

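RNA was measured in the upper layer of backfat of 6 female Bama pigs. Per the labels, total RNA was depleted of ribosomal RNA and made into stranded libraries. The authors deposited TPM per Ensembl gene, and the submitters' processing notes list kallisto 0.43.0 and Sscrofa11.1. Which Ensembl release the deposited table rests on is not stated in the sources used here. TPM keep no read counts, so the depth of each library is unknown.

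Symbols were matched by ID (14857 of 25880 IDs). Values were rescaled over 14844 named nuclear genes, and log2 ratios used a pseudocount of 0.1 rescaled TPM. Libraries were not identical to each other. Calculations used Python 3.11.15, numpy 2.4.6 and pandas 2.3.3. The likeness measure, the SD of a gene's log2 ratio to the mean of the markers, was tried on simulated data in a separate version. The SDs of the pairs of markers and their background median were not tested on simulated data. Coordinates, exons, GC content and sequences came from NCBI RefSeq on Sscrofa11.1, by symbol.

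The members and lists were chosen with earlier results of these data known. Named genes are the 9 markers, every gene with an ID of the lists of ligands and partners, the 3 most abundant genes of each other list with those over 0.1 TPM in no library, and the 5 genes most like the markers. CD9 and LIPE are named beside that rule, after their values were seen. Of the genes the rule names, 1 is not reported here. No group was compared, so no test was run. Alternatives were other scalings, pseudocounts, filters and left-out libraries. The rat table was not used, as no rat ID has a symbol in the name table.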

Additional observations from a re-analysis of the deposited data

Results flagged for a closer look

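Of 98 sets of 6 values examined (the markers on both scales, their ratios, the list sums and the genes named from the lists), 12 had 1 library far from the other 5, where chance marks about 1 in 20 sets. None was a marker or a ratio between markers. The rule seeks 1 library apart from the other 5, so it cannot mark replicates 4 and 5 where they lie apart together. CD68 had 8.74 and 6.56 rescaled TPM in replicates 4 and 5, against 43.7 to 80.7 elsewhere, and was not marked. The absence of markers from the marked sets is therefore no result about the markers. Sums and their leading genes are not separate sets.

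Replicate 2 stood high for FABP5, at 1868 rescaled TPM against 577 to 971, for KDR, at 113 against 40.4 to 57.7, and for CSF3R, at 10.9 against 1.19 to 4.07. It also stood high for ZBTB46, at 7.02 against 3.13 to 4.18, for XCR1, at 3.09 against 0.386 to 1.10, and for the dendritic cell sum that holds both, at 12.5 against 5.16 to 7.51. Replicate 5 stood high for S100A8, at 263 rescaled TPM against 4.98 to 83.0, for the neutrophil sum that S100A8 leads, at 292 against 10.4 to 99.6, and for FTL, at 3635 against 2284 to 2769.9. In replicate 4, NR1H3 was low at 35.3 rescaled TPM against 62.6 to 71.3, and JCHAIN high at 67.8 against 18.2 to 36.8. IL12B, under 0.1 TPM as deposited in each library, had 0.269 rescaled TPM in replicate 1 and 0 to 0.0683 elsewhere.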

How the results depend on the processing

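TPM keep no read counts, so depth is unknown and precision comes only from the 6 animals, which may also differ technically. The TPM as deposited moved 2 results, the summed level to 189 TPM and the median CV to 0.723. Median-centring, quantile normalization and rescaling without ribosomal protein genes moved no summary of the markers by more than 1 SD. Nor did other pseudocounts (0 and 1), medians in place of geometric means or leaving out the C1q chains. The resident against general log2 ratio, the only ratio checked for its sign, kept it. For the median CV and the median SD of pair ratios, that SD is over genes or pairs, not animals. Median-centring and quantile normalization keep the mean library level nearly fixed, so the summed level could hardly move. These outcomes therefore show little about stability. Leaving out 1 library at a time, the summed level lay between 849 and 987 rescaled TPM, the resident against general log2 ratio between 1.08 and 1.32, the median SD of pair ratios between 0.54 and 0.66, and the median CV between 0.293 and 0.413. Leaving out replicates 4 and 5 together lowered the median SD of pair ratios to 0.39 and the median CV to 0.240, each by over 1.5 times. Single markers moved by over 1 SD in 9 of 9 cases as deposited and in 0 of 54 cases with 1 library left out. Leaving out 1 of 6 values cannot shift their mean by 1 SD, so the second count was fixed in advance and shows no stability. With a background minimum of 1 rescaled TPM the background median CV was 0.327, and with none 0.368, level with the 0.367 of the markers. With the median over a list's genes in place of their sum, the mean level ran from 1.28 for B and plasma cell genes to 1115 for adipocyte genes. No paired analysis was possible because 1 group was described and no groups were compared, and the replicate numbers shared with rat pair no animals.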

Other observations

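Genes that mark lipid-handling macrophages in other settings were read as well. Of 9 such genes 9 had an ID, 6 were lower in replicates 4 and 5 than in every other library and 1, CD9, was higher, beside 48.6% and 12.3% of the background genes. The 3 most abundant were CTSB, a lysosomal protease, with 1010.3 to 1167 rescaled TPM over all 6 libraries, FABP5, a fatty acid chaperone, with 577 to 1868, and LGALS3, a galectin, with 457 to 829. CTSB was thus nearly level between animals, whereas FABP5 and LGALS3 were highest in replicate 2.

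Of 10 genes of inflammatory activation 8 had an ID and 4 were lower in replicates 4 and 5, near the 48.6% of the background. CCL2, a chemokine for monocytes, had 94.2 to 512 rescaled TPM, CD86, a costimulatory ligand, had 30.8 and 25.2 in replicates 4 and 5 and 74.1 to 112 elsewhere, and CD80 had 11.0 and 10.4 there and 15.9 to 32.0 elsewhere. IL12B was over 0.1 TPM in no library. TNF and IL1B had no ID in the name table. Many of these genes are also expressed by adipocytes, stromal cells or endothelium.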
